A study of Mus musculus with 8 samples.

Results

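The enzymes with which macrophages make nitric oxide and superoxide, and those that supply or clear these radicals, were followed through the first 120 min of a lipopolysaccharide (LPS) response. They comprised 9 genes of the 23143 in the count table, chosen by gene symbol with earlier results of these data known: *Nos2*, *Gch1*, *Ass1*, *Arg1*, *Cybb*, *Cyba*, *Ncf1*, *Ncf4* and *Sod2*. RNA came from RAW264.7 cells, an established mouse macrophage line, that were left unstimulated (0 min) or received 100 ng/ml LPS of *E. coli* for 15, 30, 45, 60, 75, 90 or 120 min. No group carried a transgene or a deletion, and the cells of all 8 groups were the same line in the same medium. Each time point was 1 library, so no value below has replicate error. Intervals are 95% and cover counting error only, and a call compares 2 libraries rather than 2 conditions.

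Total counts ranged from 100250892 to 159077286 per library. Ribosomal RNA counted under *Rn45s* made up 13 to 20.5% of the counts in the 15, 45, 75 and 90 min libraries and 8.18 to 9.11% in the other 4. All 7 macrophage markers with a row were detected in every library and summed to 5476 to 6689 CPM (counts scaled to a common library total), whereas markers of neutrophils summed to at most 0.55 and those of T cells, B cells, fibroblasts, endothelium and epithelium to at most 0.24. The RNA was labelled as the cytoplasmic fraction in one field and as total RNA in another. Values are averages over many cells, so a change in the number of cells with a transcript and a change in the amount per cell cannot be told apart.

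Activated macrophages kill microbes with nitric oxide and with superoxide. The inducible nitric oxide synthase NOS2 makes nitric oxide from arginine and needs the cofactor tetrahydrobiopterin, whose synthesis starts with GTP cyclohydrolase (GCH1). Argininosuccinate synthase (ASS1) helps to rebuild arginine from the citrulline that NOS2 releases, and arginase (ARG1) consumes the same arginine. Superoxide comes from the phagocyte NADPH oxidase, in which CYBB is the catalytic membrane subunit, CYBA its membrane partner, NCF1 the organizer that is recruited from the cytosol, and NCF4 a further cytosolic subunit. SOD2 is the mitochondrial dismutase that turns superoxide into hydrogen peroxide.

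On GRCm38, *Nos2* spans chr11:78920787-78960226 (plus strand), *Gch1* chr14:47153895-47189413 (minus), *Ass1* chr2:31470270-31520670 (plus) and *Arg1* chr10:24915207-24927470 (minus). The oxidase genes *Cybb*, *Cyba*, *Ncf1* and *Ncf4* are unlinked and lie at chrX:9435252-9487766 (minus), chr8:122424771-122432940 (minus), chr5:134220053-134229628 (minus) and chr15:78244164-78262582 (plus). *Sod2* spans chr17:13007839-13018119 (plus). Exons of *Ncf1* overlap those of *Gtf2ird2* on the opposite strand, and whether the counting used strand is not given in the sources used here. Reads shared between gene symbols were dropped, so without strand the overlap could lower the counts of *Ncf1*. Reads of the neighbor could be added only where the reference of the study lacked its overlapping exon. Neither was tested.

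Promoters from RefSeq (GRCm38.p6, 250 bases before the start site to 50 after it) were matched for 6 of the 9 genes. Those of *Gch1*, *Sod2* and *Cybb* are shown because these 3 genes were higher at 120 min. They lie at chr14:47189364-47189663 (minus strand), chr17:13007589-13007888 (plus) and chrX:9469275-9469574 (minus, within the annotated span of *Cybb*). Capitals mark matches to any of 4 motifs searched on both strands, namely the NF-κB consensus, the PU.1 core GAGGAA, the TATA box TATAAA and the AP-1 site TGANTCA.
Gch1: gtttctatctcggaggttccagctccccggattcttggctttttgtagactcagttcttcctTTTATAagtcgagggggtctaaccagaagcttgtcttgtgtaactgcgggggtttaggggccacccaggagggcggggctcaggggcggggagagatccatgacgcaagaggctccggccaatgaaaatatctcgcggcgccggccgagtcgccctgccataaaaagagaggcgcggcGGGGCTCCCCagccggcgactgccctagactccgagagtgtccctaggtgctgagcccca
Sod2: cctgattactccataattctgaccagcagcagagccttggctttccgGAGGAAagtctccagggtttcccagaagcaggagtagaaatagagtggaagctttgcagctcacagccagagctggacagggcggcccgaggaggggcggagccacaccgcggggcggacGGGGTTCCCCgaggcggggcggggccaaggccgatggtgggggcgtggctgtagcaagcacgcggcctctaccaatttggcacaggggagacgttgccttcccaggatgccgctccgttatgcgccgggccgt
Cybb: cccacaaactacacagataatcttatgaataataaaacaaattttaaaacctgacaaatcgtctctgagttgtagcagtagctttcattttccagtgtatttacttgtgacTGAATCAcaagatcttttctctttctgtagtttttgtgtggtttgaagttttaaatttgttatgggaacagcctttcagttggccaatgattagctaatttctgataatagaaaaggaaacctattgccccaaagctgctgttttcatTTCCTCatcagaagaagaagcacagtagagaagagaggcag

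With the start site as position 0, the NF-κB match of *Gch1* was GGGGCTCCCC at −10 to −1 and that of *Sod2* was GGGGTTCCCC at −83 to −74. Both read as a match on either strand, and 8.46% of 32851 RefSeq promoters hold such a match. *Cybb* held an AP-1 match at −139 to −133 (7.81% of promoters) and a PU.1 match on the minus strand at 9 to 14. *Sod2* held a PU.1 match at −203 to −198 (28.3% of promoters), and *Gch1* a TATAAA match on the minus strand at −188 to −183 (13.6%). Matches to different motifs did not overlap in these windows. The *Ass1*, *Cyba* and *Ncf1* windows held none of these letters, which says nothing of other stretches of the genes. A match describes the sequence and is not evidence of binding.

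Within 120 min of LPS, 4 of the 9 genes rose (*Nos2*, *Sod2*, *Gch1* and *Cybb*) and none fell. A call required a log2 ratio to the 0 min library beyond 0.5 and an unadjusted p below 0.05 in an exact negative binomial test of the 2 libraries, with the variance taken from all 8 libraries. None of the 9 was called higher at 15, 30, 45 or 60 min, where 0.295, 1.14, 3.8 and 3.43% of all genes tested were. *Nos2* and *Sod2* were called at 75 min (2 of 9, against 4.77% of genes) and at 90 min (2 of 9, against 5.79%). Both calls at 75 min were lost with Benjamini-Hochberg adjustment, and that of *Sod2* alone with TMM factors, edgeR's exact test, library totals, a log2 limit of 1, or without the 30, the 45 or the 60 min library. At 90 min the call of *Sod2* was lost with adjustment, on library totals and at a limit of 1. At 120 min 4 of 9 were called, against 7.63% of 15665 genes with a count in either library. No member was called lower at 15, 30, 45, 60, 75, 90 or 120 min, where 0.164, 0.202, 1.5, 2.36, 3.48, 4.42 and 6.7% of genes were.

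**Figure D1:**
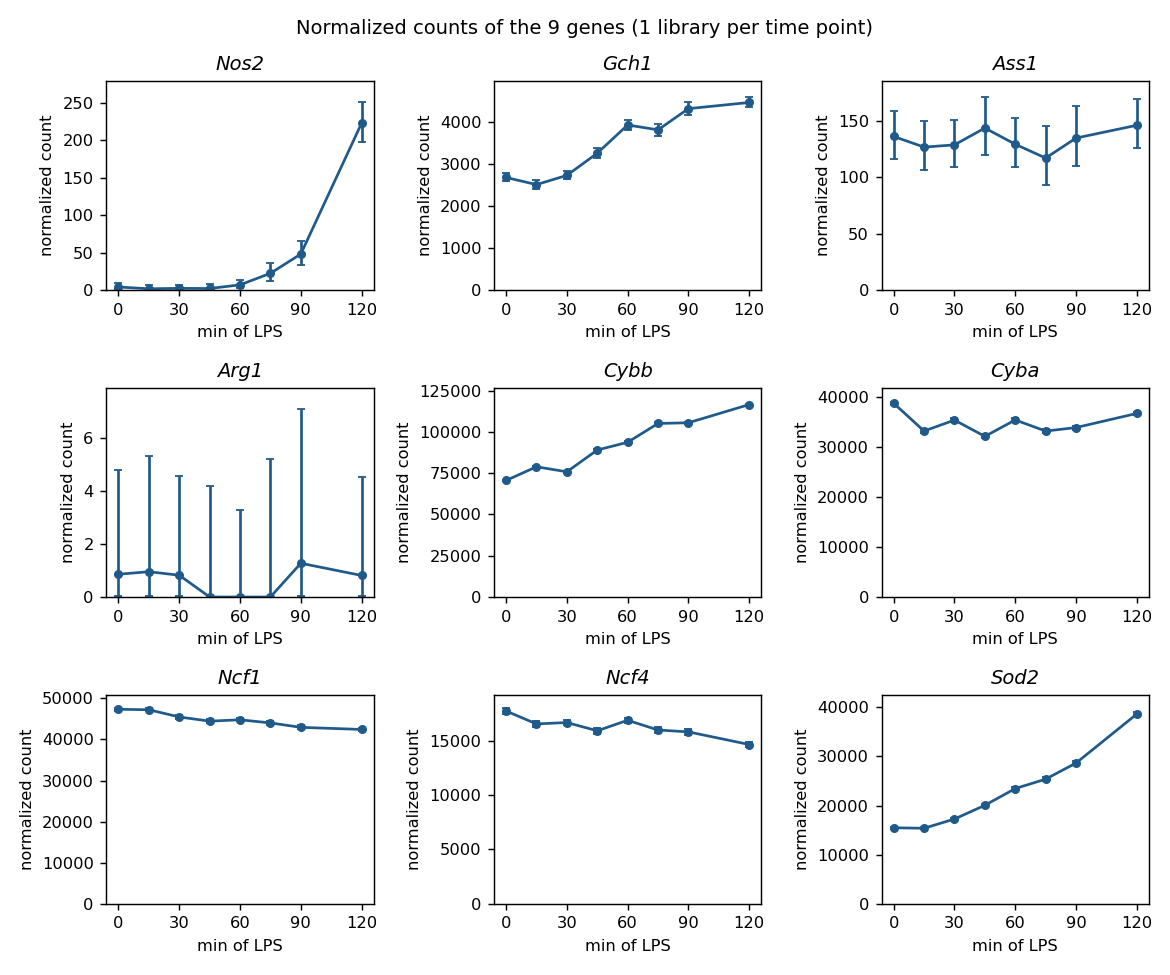
Size-factor normalized counts (y axis, from 0, with its own scale per gene) of the 9 genes against min of LPS (x axis), 1 library per point, with bars for the 95% Poisson interval. *Nos2*, *Gch1*, *Cybb* and *Sod2* have their highest value at 120 min, *Ncf1* and *Ncf4* their lowest, and *Arg1* has at most 1 raw read in a library.

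*Nos2*, the source of nitric oxide in activated macrophages, went from near absence to a low level. Its raw counts were 5, 2, 3, 2, 8, 16, 38 and 275 in the libraries from 0 to 120 min. The first 4 libraries held 12 of its reads in 507082250 counts, or 0.0237 CPM (0.0122 to 0.0413). The counting intervals of all ratios among the first 5 libraries included 1, and the 75, 90 and 120 min libraries were each above these 5. The ratio of normalized counts to 0 min was 5.27 (1.84 to 18.4) at 75 min, 11.3 (4.43 to 36.7) at 90 min and 52.1 (22.1 to 161.7) at 120 min. Against the sum of the 0 to 45 min libraries, which rests on 12 reads in place of 5, the 120 min library was 80.4-fold higher (45.3 to 157.4).

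*Nos2* was 6.77-fold higher (3.11 to 16.8) at 90 than at 60 min and 4.62-fold higher (3.28 to 6.67) at 120 than at 90 min, and both steps passed the call. These intervals overlap, so the data do not order the 2 steps. In rpkm (counts scaled to transcript length and library total), the level of *Nos2* went from 0.00910 (0.00296 to 0.0212) to 0.412 (0.365 to 0.464). At 120 min *Nos2* was therefore still below *Ass1*, the next gene in the order of levels, at 0.667 rpkm (0.573 to 0.772).

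*Gch1*, which starts tetrahydrobiopterin synthesis, was already expressed before LPS and rose moderately. Its normalized counts were 2678, 2508, 2728, 3254, 3925, 3809, 4313 and 4460 in the libraries from 0 to 120 min. All libraries from 45 min on were above the first 3. The ratio to 0 min was 1.47 (1.40 to 1.53) at 60 min and 1.67 (1.59 to 1.74) at 120 min, a log2 ratio of 0.74, and only the latter was called. Between 90 and 120 min, while *Nos2* rose, *Gch1* moved 1.03-fold (0.991 to 1.08). The call of *Gch1* at 120 min was lost on several other settings, among them library totals as the scale (log2 ratio 0.53), edgeR's exact test (0.71) and the 0, 30, 60 and 120 min libraries alone (0.74).

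*Ass1*, which rebuilds arginine, was low and was not called at any time. Its raw counts were 159, 133, 157, 127, 145, 83, 106 and 180 from 0 to 120 min, and its normalized counts 136.0, 126.6, 128.6, 143.4, 129.1, 116.9, 134.6 and 145.9. The 8 libraries showed no order in time, and the ratio at 120 min was 1.07 (0.862 to 1.34). Its log2 ratio was 0.10 on size factors and −0.10 on library totals, so the data give it no direction. Of the 1639 stretches of 58 bases in its transcript, the read length, 776 occur in no other gene, and the rest are shared with the pseudogene *Gm5424*. Since shared reads were discarded, the level of *Ass1* at 0 min was 0.715 rpkm by transcript length and 1.56 by unique stretches.

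*Arg1*, the arginase that competes for the same arginine, was at the limit of detection. It had 1 read in each of the 0, 15, 30, 90 and 120 min libraries and 0 in the 45, 60 and 75 min libraries. The 5 reads among 1006657109 counts correspond to 0.00497 CPM (0.00161 to 0.0116). A count of 0 allowed up to 0.0223 to 0.0299 CPM in the 3 libraries without a read. All 8 counts were under the floor of 3, so no ratio is given.

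*Cybb*, the catalytic subunit of the oxidase, was abundant at rest and rose, whereas none of the other 3 oxidase genes was called. Its normalized counts were 70587, 78868, 75839, 89008, 93716, 105100, 105528 and 116556 in the libraries from 0 to 120 min. Every stimulated library was above the 0 min library, and the 4 latest were the 4 highest. The ratio to 0 min was 1.33 (1.32 to 1.34) at 60 min, 1.49 (1.47 to 1.50) at 75 min and 1.65 (1.64 to 1.67) at 120 min, and only the last, a log2 ratio of 0.72, was called. As for *Gch1*, this call was lost on library totals (log2 ratio 0.52), with edgeR's exact test (0.70) and in the 0, 30, 60 and 120 min libraries alone (0.73), and also when the 30 min library was left out (0.72).

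*Cyba*, the membrane partner that stabilizes CYBB, was the most abundant of the 9 per transcript length. Its normalized counts were 38784, 33231, 35425, 32161, 35453, 33222, 33929 and 36757 from 0 to 120 min. All 7 stimulated libraries were below the 0 min library, but they did not fall with time, and none was called. The 4 lowest were the 15, 45, 75 and 90 min libraries, which were also the 4 with the most *Rn45s*, and the part of ribosomal RNA in this was not tested. The ratio to 0 min was 0.829 (0.817 to 0.842) at 45 min and 0.948 (0.935 to 0.960) at 120 min.

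*Ncf1*, the organizer subunit, and *Ncf4* were not called at any time and stayed close to their 0 min values. The normalized counts of *Ncf1* were 47337, 47219, 45463, 44445, 44773, 44016, 42937 and 42426 from 0 to 120 min, with a ratio of 0.896 (0.886 to 0.907) at 120 min. Those of *Ncf4* were 17710, 16527, 16653, 15897, 16863, 15967, 15795 and 14634, with a ratio of 0.826 (0.810 to 0.843). In both genes the 0 min library was the highest and the 120 min library the lowest. These intervals exclude 1, but such a ratio lay well inside the spread of all genes. Over the 10494 genes whose normalized counts averaged 100 or more, the middle 95% of log2 ratios at 120 min ran from −1.34 to 1.63. *Ncf1* and *Ncf4* were at −0.16 and −0.28, and on library totals at −0.36 and −0.48, uncalled there too. The called log2 ratios of *Gch1* (0.74), *Cybb* (0.72) and *Sod2* (1.32) lay inside the same band, so the band does not separate called from uncalled genes.

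*Sod2*, the mitochondrial dismutase, rose, and its call at 120 min, like that of *Nos2*, held in all 17 alternatives run. All 17 compare the same 0 and 120 min libraries, and some, such as the limit without a test, could not have removed the call. The normalized counts of *Sod2* were 15467, 15371, 17250, 20044, 23449, 25367, 28646 and 38615 in the libraries from 0 to 120 min. From 30 min on, each library was above the one before it. The ratio to 0 min was 1.52 (1.49 to 1.55) at 60 min, which was not called, then 1.64 (1.61 to 1.67) at 75 min, 1.85 (1.82 to 1.89) at 90 min and 2.50 (2.45 to 2.54) at 120 min, which were. The second hour alone, from 60 to 120 min, gave a 1.65-fold change that passed the call. With a log2 ratio of 1.32 at 120 min, *Sod2* ranked at percentile 96.7 of the 10494 genes, above *Gch1* at 91.5 and *Cybb* at 91.3.

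**Figure D2:**
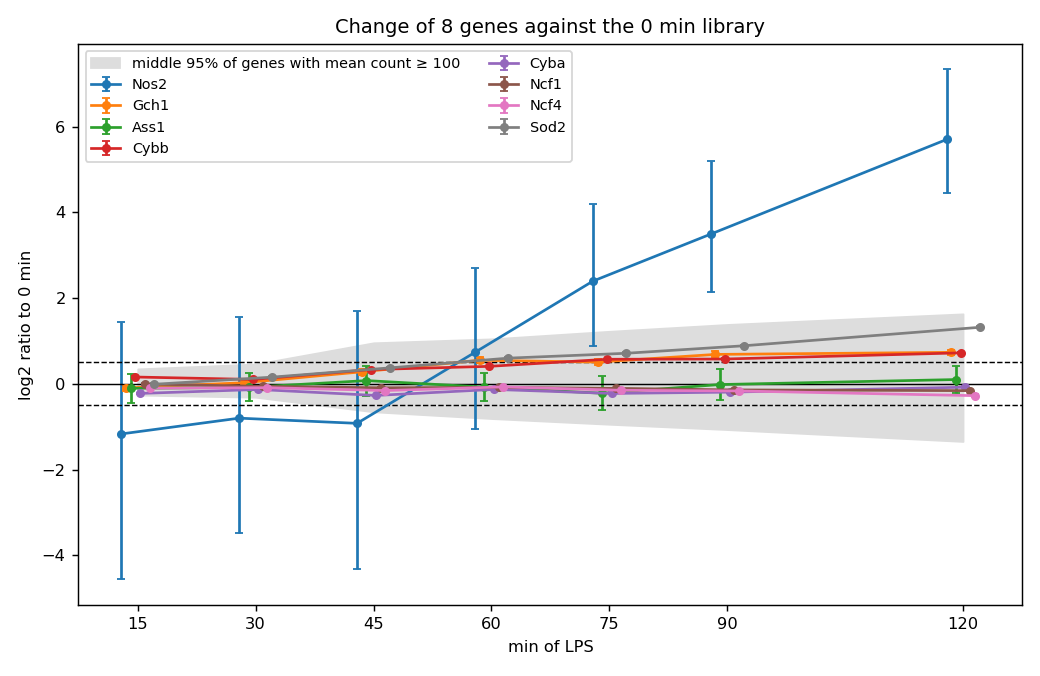
Log2 ratio to the 0 min library (y axis) against min of LPS (x axis) for 8 genes, with bars for the 95% counting interval, points shifted sideways for clarity, *Arg1* left out, and dashed lines at ±0.5. The grey band holds the middle 95% of 10494 genes, and of the 8 only *Nos2*, which was itself too low to be among those genes, lies above it at 120 min, at 5.70.

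In the expression patterns defined by extrema over all 28 pairs of libraries, the same 4 genes had a first maximum at or after 60 min and no earlier minimum, a pattern of 5.34% of all genes. For each of them the maximum was the 120 min library, the last of the series, so a later peak could not be seen. The other 5 had no significant change, as did 87.5% of genes. None of the 9 had an early maximum or minimum that turned later, patterns of 0.592 and 0.415% of genes. These shares are of all 23143 genes in the table, of which 6176 had no read in any library and could show no change.

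The levels of the 9 genes differed far more between genes than over time. At 0 min the order in rpkm was *Cyba* at 465.0, *Ncf1* at 155.2, *Cybb* at 132.5, *Ncf4* at 107.9, *Sod2* at 23.5, *Gch1* at 8.61, *Ass1* at 0.715, *Nos2* at 0.00910 and *Arg1* at 0.00517. Only the intervals of *Nos2* and *Arg1* overlapped. At 120 min *Cybb* at 190.2 had passed *Ncf1* at 120.9, and *Nos2* at 0.412 had left *Arg1* at 0.00426, while *Cyba* stayed first at 383.2. *Sod2* reached 51.1 rpkm, still below *Ncf4* at 77.5, and *Gch1* reached 12.5.

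**Figure D3:**
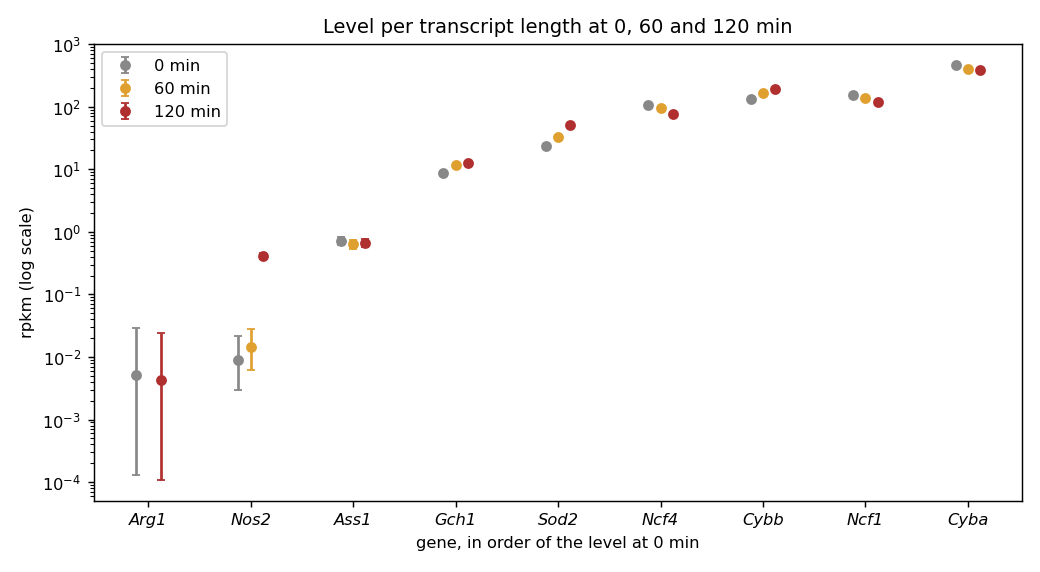
Rpkm on a log scale (y axis) of the 9 genes ordered by their 0 min level (x axis) in the 0, 60 and 120 min libraries, with 95% Poisson intervals and no point for a count of 0. The 4 oxidase genes lie between 77.5 and 465.0 rpkm at 0 and 120 min, and *Nos2* moves from 0.00910 to 0.412.

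Ratios of levels within a library do not depend on the scaling between libraries. *Cybb* to *Cyba* went from 0.285 at 0 min to 0.496 at 120 min, but not evenly. It was higher at 15 min (0.372) than at 30 min (0.335) and higher at 45 min (0.433) than at 60 min (0.414). The 15 and 45 min libraries had more *Rn45s*, whose part in this was not tested. *Ncf1* to *Cybb* went from 1.17 to 0.636 and *Ncf4* to *Cybb* from 0.814 to 0.408. By contrast, *Ncf1* to *Ncf4*, both cytosolic subunits, stayed between 1.43 and 1.56 in the 8 libraries. Ratios to some partners outside the 9 genes were taken after their values had been seen. *Sod2* to the cytosolic dismutase *Sod1* went from 0.146 to 0.387, and *Gch1* to its feedback regulator *Gchfr* from 1.63 to 2.94. Of the 584 stretches of 58 bases in *Sod1*, 479 occur in no other gene. With shared reads dropped, the level of *Sod1* by transcript length may be too low, and the ratio to it too high, in each library.

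**Figure D4:**
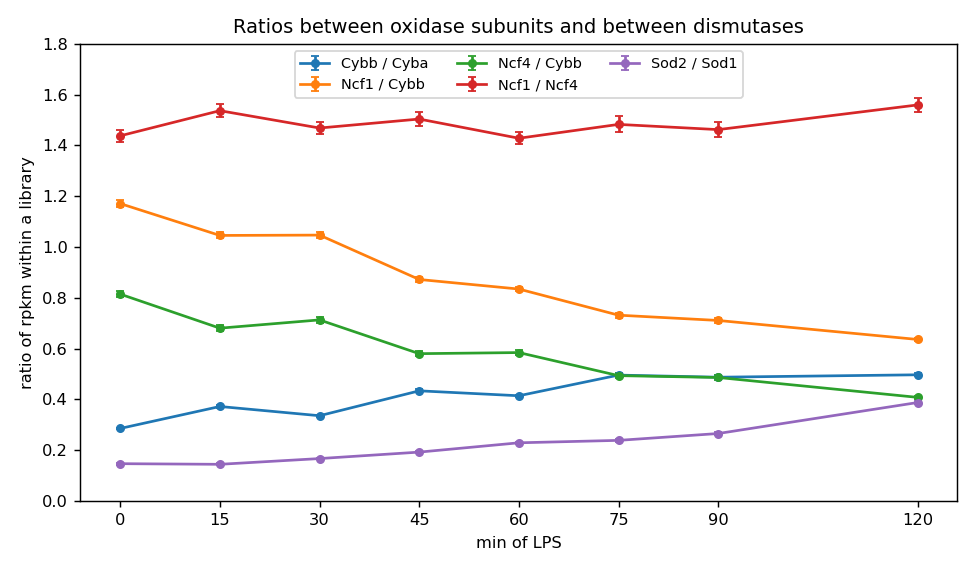
Ratio of rpkm values within a library (y axis, from 0) against min of LPS (x axis) for 5 pairs of genes, with 95% counting intervals. *Ncf1* to *Ncf4* stays between 1.43 and 1.56, *Ncf1* and *Ncf4* to *Cybb* end at 0.636 and 0.408, and *Cybb* to *Cyba* and *Sod2* to *Sod1* end at 0.496 and 0.387.

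The wider pathway was described with 35 further genes. Of these, 8 had no read in any library (*Ddah1*, *Gucy1a3*, *Gucy1b3*, *Pcbd1*, *Nox4*, *Noxa1*, *Duox1* and *Sod3*). Of the 27 with a read at 0 or 120 min, 5 were called higher and 1 lower at 120 min, beside the 7.63 and 6.7% of all such genes. Over genes with at least 10 normalized counts at 0 min, which leaves out *Nos2* and *Arg1*, the median log2 ratio at 120 min was 0.10 for 7 members, −0.14 for 22 further pathway genes and −0.02 for all 12051 genes. Called higher earlier were none at 15 or 30 min, 2 of 27 at 45 min (3.8% of all genes), 3 at 60 min (3.43%), 2 at 75 min (4.77%) and 3 at 90 min (5.79%).

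Among 13 genes of arginine and nitric oxide handling, 10 of them with a read at 0 or 120 min, 4 were called higher at 120 min (7.63% of all genes). *Slc7a1*, a cationic amino acid transporter that imports arginine, went from 23171 to 50187 normalized counts (2.17-fold, 2.14 to 2.20) and was called from 75 min on. *Odc1*, ornithine decarboxylase, which acts on the product of arginase, went from 50016 to 251354 (5.03-fold, 4.98 to 5.07) and was called from 60 min on. *Arg2*, the mitochondrial arginase, had 3 reads at 0 min and 30 at 120 min (9.47-fold, 2.95 to 48.5), more reads than *Arg1* in the 120 min library. Exons of *Arg2* overlap those of *Vti1b* and *Gm48780* on the opposite strand, so these few reads may be affected as described for *Ncf1*. *Ddah2*, which degrades an inhibitor of nitric oxide synthases, was called at 45 min (2.41-fold, 1.75 to 3.34), at 60 min (2.79-fold, 2.07 to 3.79) and at 120 min (2.02-fold, 1.48 to 2.77) but not at 75 min (1.27-fold, 0.856 to 1.89), when it was lower than at 60 min by the same call. *Slc3a2*, the common heavy chain of several amino acid transporters, was called at 45 and 60 min only, at 1.66-fold and 1.69-fold, and was at 1.50-fold at 120 min.

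None of the 6 further tetrahydrobiopterin genes was called at 120 min. *Pcbd1*, without reads, could not be called. The absence of calls among the other 5 is near the shares of all genes called higher (7.63%) and lower (6.7%), so it does not set this list apart. All 5 tetrahydrobiopterin genes with a mean of at least 10 had log2 ratios below 0, from −0.38 to −0.11, beside 0.74 for *Gch1*. These uncalled values lay between percentiles 19.12 (*Spr*) and 39.15 (*Gchfr*) of the 10494 genes. Of 11 further NADPH oxidase genes, *Nox1*, the catalytic subunit of a related oxidase, was called higher at 120 min on 8 and 50 reads (5.92-fold, 2.79 to 14.5). *Hvcn1*, the proton channel that balances the charge the oxidase moves, was called lower at 120 min, with 358 reads at 0 min and 136 at 120 min (0.360-fold, 0.293 to 0.440). Exons of *Nox1* overlap those of *Cstf2*, and exons of *Hvcn1* those of *Tctn1*, on the opposite strand. As for *Ncf1*, the overlap may have changed the counts of both, and this was not tested. None of the 5 further genes for removal of superoxide and peroxide was called at 120 min, beside 2.50-fold for *Sod2*. Only 4 of these 5 had a read at 0 or 120 min, and none among 4 is also near the 7.63 and 6.7% of all genes.

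**Figure D5:**
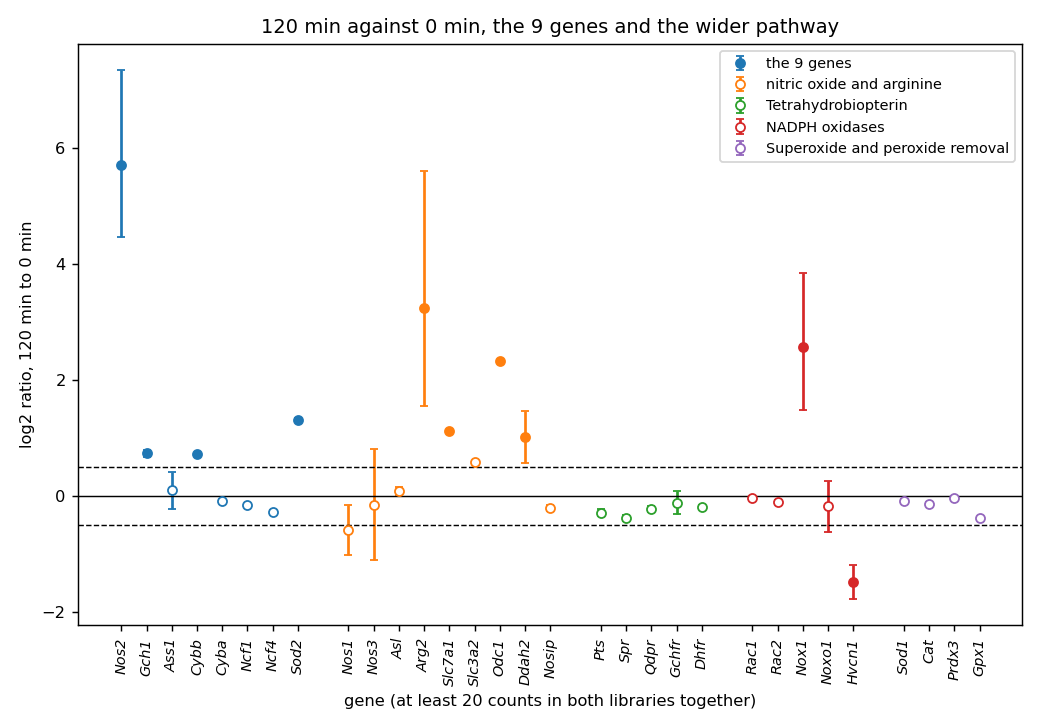
Log2 ratio of the 120 min to the 0 min library (y axis) for members and further pathway genes with at least 20 reads in both libraries together (x axis, grouped by role, 1 gene not drawn), with 95% counting intervals, filled points for called genes and dashed lines at ±0.5. Among members the filled points are *Nos2*, *Gch1*, *Cybb* and *Sod2*, and *Hvcn1* is the filled point below 0.

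Likeness over the 8 libraries was measured as Pearson's r of log2(normalized count + 1) against 10494 genes, as a description, since all points share their libraries and the whole response moves with time. Closest to *Nos2* were *Slc11a2* (r = 0.9955), *Adam8* (0.9949) and *Opa3* (0.9947). These r values include *Nos2* counts of at most 8 in each library from 0 to 60 min, and r does not compare sizes. At 120 min the log2 ratios of the 3 genes were 2.19, 0.72 and 0.43, against 5.70 for *Nos2*. Closest to *Gch1* were *Rnf4* (0.9949), *Cep63* (0.9942) and *Tbk1* (0.9928), and to *Sod2* *Tmem185b* (0.9981), *3110043O21Rik* (0.9962) and *Icosl* (0.9961). *Cybb* was closest to *Zfp703* (0.9986), *Cdk12* (0.996) and *Lats1* (0.9943). *Ncf1* was closest to *Coasy* (0.9966), *Plod1* (0.9916) and *Slc35c2* (0.9905), *Ncf4* to *Gins1* (0.9898), *Echs1* (0.9867) and *Gins2* (0.9858), and *Cyba* to *Ndufa7* (0.9815), *Pih1d1* (0.9805) and *Mrps28* (0.9777). *Ass1* was closest to *Glb1l* (0.9869), *6720401G13Rik* (0.9552) and *Ddx58* (0.94), and *Arg1*, with at most 1 read in a library, gave no interpretable order. Among the members themselves, r was 0.96 for *Sod2* with *Cybb*, 0.95 for *Sod2* with *Gch1*, 0.85 for *Ncf1* with *Ncf4* and −0.95 for *Sod2* with *Ncf1*.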

How the data were processed

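RNA of RAW264.7 cells at 8 time points had been sequenced with 1 library per time point, after removal of ribosomal RNA with Ribo-Zero and library preparation with a directional NEBNext kit. For 23143 gene symbols, the authors deposited unnormalized counts of reads, and no column was left unused. According to the methods of the study, Bowtie placed 58-base reads on the RefSeq transcriptome (mm10) with at most 2 mismatches, and reads shared between gene symbols were dropped. The submitters' processing notes name CASAVA 1.8.2 and DESeq 1.10.1, and a Bowtie version is not given in the sources used here. Discarding shared reads lowers the count of a gene with a near-identical copy.

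Size factors (median of ratios), 1 parametric dispersion over the 8 libraries taken as replicates and exact negative binomial tests of all 28 pairs were computed after the DESeq settings of the study, with code for Python 3.11.15 (scipy 1.17.1, numpy 2.4.6, numba 0.67.0, pandas 2.3.3, matplotlib 3.10.9). The code was tested on simulated data, where all 200 of 200 genes changed 4-fold among 23143 were found and 22 of 10294 unchanged genes with a mean of at least 100 were called. The simulated dispersion was constant and below that fitted to the real libraries, and the changed genes also had a mean of at least 100. These rates therefore check the code and do not carry over to the real calls, to smaller changes or to low counts. A log2 ratio beyond 0.5 and an unadjusted p below 0.05 made a call. With 1 library per group, no residual degrees of freedom remained for a quasi-likelihood test. Ratios carry exact conditional binomial intervals and rpkm values exact Poisson intervals, both 95%, and up to 3 counts were allowed where none was seen. Rpkm used GENCODE vM21 transcript lengths matched by RefSeq identifier, and coordinates came from the RefSeq gene table of GRCm38.

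The members and gene lists were chosen with earlier results of these data known. Named were all 9 members, pathway genes called at any time or without a read, and the 3 genes most like each member. Alternatives were edgeR 4.0.16 (R 4.3.3) TMM factors and exact test, the DESeq2 1.42.0 dispersion trend, library totals with and without *Rn45s*, adjusted p-values, other limits, each library left out, and, added after seeing the data, the 0, 30, 60 and 120 min libraries alone and rpkm by unique 58-mers. The limit of 10 normalized counts at 0 min for medians of lists was also set after seeing the data. Marker lists of 7 cell types served to check the label. The values of 1 pathway gene, which is included in the counts and medians of its list, are not reported here.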

Additional observations from a re-analysis of the deposited data

How the results depend on the processing

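No paired analysis was possible because each time point had 1 library. Of 554 values recomputed under an alternative, 491 counted as the same, 13 lost a call, 50 moved and 0 were called log2 ratios that changed sign. Same meant a log2 ratio with its call unchanged, an unchanged pattern group or a similar number of called members. It also covered an rpkm inside the counting interval of the main value and a rank correlation that stayed high. An uncalled log2 ratio that changed sign, as for *Ass1* on library totals, also counted as the same. The 4 members called at 120 min became 2 (*Nos2* and *Sod2* remained) with Benjamini-Hochberg adjustment, edgeR's exact test, library totals with or without *Rn45s*, a log2 limit of 1 or the 0, 30, 60 and 120 min libraries alone. *Gch1* and *Cybb* then had no pattern (group 0) under each of these but edgeR's exact test, for which patterns were not computed, and *Cybb* also without the 30 or the 120 min library (0 in both). At 75 min, 2 members became 0 with adjustment, 4 with no test and 1 with TMM factors, edgeR's exact test, library totals with or without *Rn45s* or a limit of 1, and 1 without the 30, 45 or 60 min library. At 90 min, 2 became 1 with adjustment, library totals or a limit of 1, and 5 with no test. At 60 min, 0 became 3 with no test and 1 without the 120 min library. With no test, members beyond the lower limit numbered 1 at 15, 30, 60 and 75 min and 2 at 45 min, and *Nos2* and *Arg1*, on counts of at most 5 in the libraries concerned, moved to group 4, an early minimum with a later maximum. The cause was not tested. Using each gene's longest transcript gave *Gch1* 6.81 rpkm at 0 min. Without the 0 min library no ratio could be computed. Counting error limits *Nos2* before 75 min and *Arg1* throughout.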
